A study of Mus musculus with 6 samples.

Results

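The genes followed here are 10 genes of the endoplasmic reticulum (ER) folding machinery and its stress response, measured in single-nucleus RNA sequencing of the mouse left ventricle. The 10 symbols were Hspa5, Hsp90b1, Calr, Dnajc3, Pdia3, Pdia4, Pdia6, Xbp1, Atf4 and Ddit3, read from 33696 genes listed per library. They were selected by name, with results of these same libraries already known, and compared as counts of unique molecular identifiers (UMIs), scaled to CPM, that is to 1000000 UMIs of a cell class and library. For single genes in a class that total was adjusted by edgeR's normalisation factor (TMM). Summed levels of gene sets used the unadjusted total. Because the 3 group contrasts were part of the choice, every difference given for these 10 genes is a description. Calls and p-values counted for them below are set beside those of all genes and cannot serve as a test of the 10.

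All mice were males, and hearts were taken at 12 weeks of age. WT-CD mice were wild-type littermates on a control diet (CD). R403Q-CD mice carried the genotype labelled Myh6+/R404Q (R403Q), a missense allele of the cardiac myosin heavy chain that models hypertrophic cardiomyopathy, and ate the same control diet. R403Q-EMPA mice carried that allele and ate the control diet with empagliflozin, an inhibitor of the sodium-glucose cotransporter SGLT2, at 0.15 mg per g of diet, about 15 mg/kg body weight. Diets began at 9 to 10 weeks of age. The labels also give a longer feeding period than the age at sequencing allows, so they do not settle the exact length of treatment. The ages limit it to the time between 9 to 10 and 12 weeks of age. Each group had 2 libraries (n = 2), made from fresh frozen tissue, and the labels do not say whether the 2 came from separate animals, so spread between libraries may be technical. The mutant allele is in the germline and therefore in every cell type, although α-myosin itself is made in cardiomyocytes. No wild-type mice on empagliflozin were analysed here.

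Proteins that will be secreted or placed in membranes fold in the ER lumen. Hspa5 (BiP) and Hsp90b1 (GRP94) bind unfolded chains, Calr retains glycoproteins until they are folded, Pdia3, Pdia4 and Pdia6 form and exchange disulphide bonds, and Dnajc3 (p58IPK) is a co-chaperone of Hspa5. When unfolded protein accumulates, 3 sensors (Ern1, Eif2ak3 and Atf6) start the unfolded protein response (UPR). Ern1 splices the Xbp1 transcript, Eif2ak3 (PERK) slows translation while favouring translation of Atf4, and Atf4 induces Ddit3 (CHOP), a factor linked to cell death under prolonged stress. Splicing of Xbp1 and translation of Atf4 leave no trace in a count per gene, so the values below are transcript levels only. Nuclei hold newly made and retained RNA and little of the cytoplasmic message.

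Promoters of ER chaperone genes are known for the ER stress response element (ERSE), bound by NF-Y at its CCAAT part and by Atf6 or Xbp1 at its CCACG part. The letters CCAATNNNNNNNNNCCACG were searched on both strands of the RefSeq promoter windows of build GRCm38.p6, which run from 250 bases before to 50 bases after each gene start. They occurred in 5 of the 10 genes, against 39 of 32851 windows in all (0.1187%). The matching sites are shown because they divide the 10 genes into groups of 5 whose values are compared further on. Capitals mark the fixed letters of the motif, and each site is written along the motif, 5′ to 3′.
Hspa5: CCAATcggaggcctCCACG
Calr: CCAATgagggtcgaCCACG
Hsp90b1, distal site: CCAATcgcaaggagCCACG
Hsp90b1, proximal site: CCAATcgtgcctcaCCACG
Pdia6: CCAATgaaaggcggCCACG
Dnajc3: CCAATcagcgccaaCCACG

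The Hspa5 site lies at chr2:34772025-34772043 on the plus strand, the strand of the gene, 65 to 47 bases before the start. The Pdia6 site lies at chr12:17266491-17266509 and the Dnajc3 site at chr14:118937827-118937845, both on the plus strand and both on the strand of their gene, 98 to 80 and 105 to 87 bases before the start. Calr is a minus-strand gene with its site on the plus strand at chr8:84847075-84847093, 162 to 144 bases before the start and therefore opposite to transcription. Hsp90b1, also a minus-strand gene, had 2 sites. The distal one lies on the minus strand at chr10:86705638-86705656 and the proximal one on the plus strand at chr10:86705533-86705551. The spacers between the fixed letters held 6 or 7 G or C of 9 bases. To show the context of the motif, the 250 bases before the start of the 2 genes described first are printed along the gene, with the motif in capitals (opposite-strand sites read CGTGG to ATTGG).
Hspa5, chr2:34771840-34772089, plus strand: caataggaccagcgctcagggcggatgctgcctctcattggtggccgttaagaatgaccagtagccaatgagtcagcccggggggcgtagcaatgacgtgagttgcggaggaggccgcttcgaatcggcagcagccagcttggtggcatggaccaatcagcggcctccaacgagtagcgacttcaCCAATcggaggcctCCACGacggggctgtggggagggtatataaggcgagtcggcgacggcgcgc
Hsp90b1, chr10:86705445-86705694, minus strand: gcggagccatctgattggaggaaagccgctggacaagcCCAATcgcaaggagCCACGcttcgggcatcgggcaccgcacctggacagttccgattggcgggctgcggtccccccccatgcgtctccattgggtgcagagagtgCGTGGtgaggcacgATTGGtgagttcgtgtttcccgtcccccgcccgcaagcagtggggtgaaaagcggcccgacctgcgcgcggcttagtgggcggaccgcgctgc

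The same windows were searched on both strands for 5 other sets of letters. ERSE-II (ATTGG, any 1 base, then CCACG) was in none of the 10 genes and in 0.03653% of all windows, the C/EBP-ATF letters TGATGCAAT in none and in 0.1918%, and the Atf6 letters TGACGTGG in none and in 0.6758%. The short parts of the ERSE are common. CCACG was in 7 of the 10 genes and 32.77% of windows and CCAAT in 9 and 37.41%, both counted with the copies inside ERSE sites. Pdia3, Pdia4, Xbp1, Atf4 and Ddit3 had no ERSE match, which says only that these letters were not in this window.

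The 6 libraries held 31787308 to 45397128 UMIs, and 46005 nuclei of 69249 barcodes were kept (6409 to 9514 per library, with a median of 2663 to 4065 UMIs per nucleus). Libraries shared 23 to 56 barcodes per pair (at most 0.489% of the smaller library). Clusters were called by marker genes, and 10 classes had enough nuclei in every library for a fit. Fibroblast-like (1661 to 3684 nuclei per library), endothelial-like (1343 to 2964) and cardiomyocyte-like nuclei (713 to 1602) are treated in full. For the 10 genes a single library stood apart from its partner, while over all genes the WT-CD and R403Q-EMPA pairs both differed more than the R403Q-CD pair. WT-CD replicate 1 had higher CPM than WT-CD replicate 2 for 9 of the 10 genes in each of these 3 classes, with a median ratio of 1.26 in cardiomyocyte-like, 1.59 in fibroblast-like and 1.56 in endothelial-like nuclei. The corresponding ratios were 0.976, 0.871 and 0.851 for the R403Q-CD pair and 0.868, 1.04 and 0.966 for the R403Q-EMPA pair. Summed ribosomal protein transcripts differed between the 2 WT-CD libraries too, with 6177 and 3126 CPM in fibroblast-like nuclei. Medians of the 10 genes against WT-CD in the 3 large classes are therefore given with and without that library. Other values against WT-CD include it unless stated.

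With all 6 libraries fitted, the median difference of the 10 genes in each of the 3 large classes was larger between R403Q-EMPA and R403Q-CD than between R403Q-EMPA and WT-CD. Without WT-CD replicate 1 that order turned, with medians of 0.62, 1.28 and 0.61 against R403Q-CD and 0.69, 1.32 and 0.77 against WT-CD in cardiomyocyte-like, fibroblast-like and endothelial-like nuclei. Of these 3 classes the fibroblast-like nuclei held the largest median. There, between R403Q-EMPA and R403Q-CD, the median log2 difference over the 10 genes was 1.28, against 0.00097 over all 15068 genes fitted. In cardiomyocyte-like nuclei it was 0.62, and in endothelial-like nuclei 0.61, with all-gene medians of 0.0088 and 0.0083. Both R403Q-EMPA libraries were above both R403Q-CD libraries for 10 of 10 genes in fibroblast-like nuclei, where 26% of all genes fitted had that arrangement. The count was 9 of 10 in cardiomyocyte-like nuclei (27.2% of all genes) and 9 of 10 in endothelial-like nuclei (24% of all genes). Set against WT-CD, both R403Q-EMPA libraries were above both for 10 genes in fibroblast-like nuclei (19.5% of all genes), 8 in cardiomyocyte-like nuclei (24%) and 9 in endothelial-like nuclei (19.4%). These arrangements partly made the choice of the 10 genes, and nothing further is read from them.

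**Figure D1:**
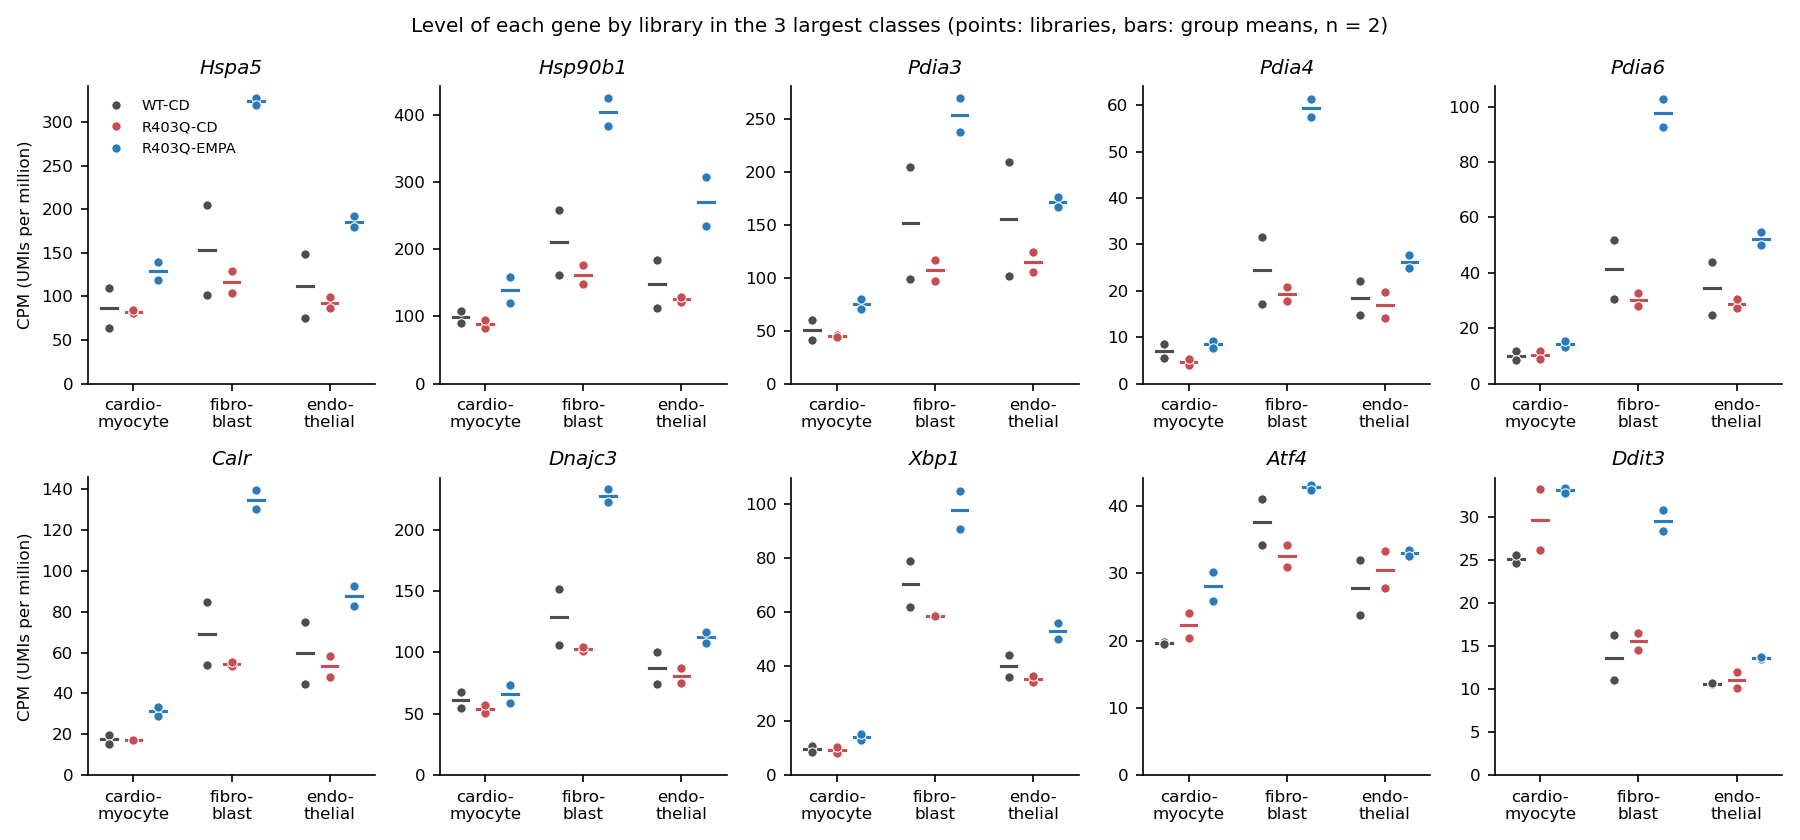
Level of each of the 10 genes, in CPM (linear axis from 0), in the cardiomyocyte-like, fibroblast-like and endothelial-like classes. Points are single libraries, coloured by group, and horizontal bars are the means of the 2 libraries of a group. In the fibroblast-like class both R403Q-EMPA points lie above the other 4 for each gene, as for Hspa5 at 329 and 321 CPM.

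Hspa5, the most central chaperone of the ER lumen and the protein that holds the UPR sensors silent, had 2.79-fold the transcript level in fibroblast-like nuclei of R403Q-EMPA that it had in R403Q-CD. The values were 205 and 102 CPM in WT-CD, 104 and 129 CPM in R403Q-CD, and 329 and 321 CPM in R403Q-EMPA. Both R403Q-EMPA libraries were above the other 4, which overlapped. The log2 difference from R403Q-CD was 1.48 (SE 0.28) in edgeR's fit over the 6 libraries, where SE is the standard error. In cardiomyocyte-like nuclei Hspa5 was at 109 and 63.6 CPM in WT-CD, 80.9 and 84.2 CPM in R403Q-CD, and 119 and 139 CPM in R403Q-EMPA. R403Q-EMPA was above both other groups by less here, with a log2 difference of 0.65 (SE 0.23) from R403Q-CD (1.56-fold). In endothelial-like nuclei the levels were 148 and 75.6 CPM in WT-CD, 86.3 and 99.8 CPM in R403Q-CD, and 179 and 192 CPM in R403Q-EMPA, and the log2 difference was 1.00 (SE 0.26). WT-CD replicate 1, at 148 CPM, lay between the R403Q-CD and the R403Q-EMPA libraries in that class.

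Hsp90b1, the ER member of the HSP90 family, folds a restricted set of clients that includes integrins and Toll-like receptors. In fibroblast-like nuclei it was at 259 and 162 CPM in WT-CD, 148 and 176 CPM in R403Q-CD, and 384 and 425 CPM in R403Q-EMPA. Again the R403Q-EMPA libraries stood above all others, at 2.50-fold the R403Q-CD level (log2 difference 1.32, SE 0.22). Its cardiomyocyte-like levels were 108 and 89.5 CPM in WT-CD, 82.5 and 94.7 CPM in R403Q-CD, and 119 and 159 CPM in R403Q-EMPA. The lower R403Q-EMPA library was nearer to WT-CD replicate 1 than to its own partner, and the log2 difference from R403Q-CD was 0.65 (SE 0.18). Endothelial-like nuclei had 184 and 113 CPM in WT-CD, 122 and 129 CPM in R403Q-CD, and 234 and 307 CPM in R403Q-EMPA. Of the 10 genes, Hsp90b1 had the largest R403Q-EMPA to R403Q-CD difference in the endothelial-like class, 1.10 (SE 0.23) on the log2 scale.

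Calr, a lectin chaperone and the main calcium buffer of the ER lumen, was at 84.7 and 53.7 CPM in WT-CD, 53.5 and 55.4 CPM in R403Q-CD, and 139.6 and 130.4 CPM in R403Q-EMPA in fibroblast-like nuclei. The R403Q-EMPA libraries were 2.48-fold above R403Q-CD (log2 difference 1.31, SE 0.20), and the R403Q-CD libraries were almost level with the lower WT-CD library. In cardiomyocyte-like nuclei Calr was at 19.6 and 15.4 CPM in WT-CD, 17.1 and 17.2 CPM in R403Q-CD, and 29.0 and 33.5 CPM in R403Q-EMPA. The 4 libraries of mice on the control diet were close to one another, and both R403Q-EMPA libraries were above them, with a log2 difference of 0.86 (SE 0.17) from R403Q-CD. Its endothelial-like levels were 75.1 and 44.5 CPM in WT-CD, 47.9 and 58.6 CPM in R403Q-CD, and 92.6 and 82.9 CPM in R403Q-EMPA, a log2 difference of 0.72 (SE 0.23). WT-CD replicate 1 was the closest of the control-diet libraries to R403Q-EMPA in that class and lay below both.

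Dnajc3, the co-chaperone that brings clients to Hspa5, was at 152 and 106 CPM in WT-CD, 101 and 104 CPM in R403Q-CD, and 233 and 222 CPM in R403Q-EMPA in fibroblast-like nuclei. Both R403Q-EMPA libraries exceeded the others, by a log2 difference of 1.15 (SE 0.17) from R403Q-CD (2.22-fold). In the cardiomyocyte-like class it was at 68.1 and 54.8 CPM in WT-CD, 50.7 and 57.1 CPM in R403Q-CD, and 58.9 and 73.6 CPM in R403Q-EMPA. R403Q-EMPA replicate 1 lay only just above the R403Q-CD libraries and below WT-CD replicate 1, and the log2 difference of 0.30 (SE 0.17) was among the smaller ones of that class. Its endothelial-like levels were 100.3 and 73.8 CPM in WT-CD, 74.7 and 87.5 CPM in R403Q-CD, and 108 and 116 CPM in R403Q-EMPA, with a log2 difference of 0.46 (SE 0.17).

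Each of the 3 disulphide isomerases had both R403Q-EMPA libraries above the other 4 in fibroblast-like nuclei. Pdia6, which also tempers signalling by the sensor Ern1, had the largest difference of the 10 genes there, with 51.8 and 30.7 CPM in WT-CD, 28.0 and 32.7 CPM in R403Q-CD, and 103 and 92.7 CPM in R403Q-EMPA. Its R403Q-EMPA level was 3.22-fold that of R403Q-CD (log2 difference 1.69, SE 0.23). Pdia4 was second, with 31.7 and 17.1 CPM in WT-CD, 17.8 and 20.8 CPM in R403Q-CD, and 57.5 and 61.3 CPM in R403Q-EMPA and a log2 difference of 1.62 (SE 0.26) (3.08-fold). Pdia3, the partner of Calr on glycoproteins, was at 205 and 98.9 CPM in WT-CD, 96.9 and 117 CPM in R403Q-CD, and 270.0 and 238 CPM in R403Q-EMPA. The log2 difference for Pdia3 was 1.25 (SE 0.29), and WT-CD replicate 1 was closer to the R403Q-EMPA libraries than to its own partner library.

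The same 3 enzymes differed by less in the other large classes. In cardiomyocyte-like nuclei Pdia3 was at 60.0 and 41.2 CPM in WT-CD, 46.3 and 44.1 CPM in R403Q-CD, and 70.6 and 80.0 CPM in R403Q-EMPA, a log2 difference of 0.74 (SE 0.18). Pdia6 was at 11.8 and 8.32 CPM in WT-CD, 11.6 and 8.92 CPM in R403Q-CD, and 13.2 and 15.5 CPM in R403Q-EMPA in that class, with R403Q-CD replicate 1 near WT-CD replicate 1 and a log2 difference of 0.49 (SE 0.23). Pdia4 counts were low in cardiomyocyte-like nuclei, 8.52 and 5.42 CPM in WT-CD, 3.97 and 5.23 CPM in R403Q-CD, and 9.21 and 7.67 CPM in R403Q-EMPA, and its log2 difference of 0.87 (SE 0.29) came with the widest standard error of the 10 genes in that class and comparison. R403Q-EMPA overlapped WT-CD for Pdia4. In endothelial-like nuclei Pdia3 was at 209.7 and 102 CPM in WT-CD, 106 and 125 CPM in R403Q-CD, and 167 and 176 CPM in R403Q-EMPA, so the highest library of all was WT-CD replicate 1, and the log2 difference between R403Q-EMPA and R403Q-CD was 0.57 (SE 0.28). Pdia4 was at 22.0 and 14.8 CPM in WT-CD, 14.1 and 19.7 CPM in R403Q-CD, and 24.8 and 27.7 CPM in R403Q-EMPA and Pdia6 at 44.1 and 24.8 CPM in WT-CD, 27.4 and 30.4 CPM in R403Q-CD, and 54.8 and 49.9 CPM in R403Q-EMPA in those nuclei, log2 differences of 0.62 (SE 0.24) and 0.86 (SE 0.24). For these 2 genes both R403Q-EMPA libraries were above the other 4.

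Among the transcription factors, Xbp1 and Ddit3 were higher in R403Q-EMPA fibroblast-like nuclei and Atf4 differed little. Xbp1, whose spliced form drives chaperone and secretory genes, was at 78.8 and 61.8 CPM in WT-CD, 58.9 and 58.5 CPM in R403Q-CD, and 90.6 and 105 CPM in R403Q-EMPA. The log2 difference from R403Q-CD was 0.73 (SE 0.15), or 1.66-fold. In cardiomyocyte-like nuclei Xbp1 was at 10.5 and 8.44 CPM in WT-CD, 8.24 and 10.3 CPM in R403Q-CD, and 13.1 and 15.0 CPM in R403Q-EMPA and in endothelial-like nuclei at 44.3 and 36.2 CPM in WT-CD, 34.2 and 36.5 CPM in R403Q-CD, and 56.1 and 50.2 CPM in R403Q-EMPA, with log2 differences of 0.59 (SE 0.21) and 0.60 (SE 0.15). Both R403Q-EMPA libraries were above all others in each of these 3 classes.

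Ddit3 was at 11.0 and 16.3 CPM in WT-CD, 14.6 and 16.5 CPM in R403Q-CD, and 30.8 and 28.4 CPM in R403Q-EMPA in fibroblast-like nuclei. It was the exception among the 10 genes in having WT-CD replicate 1 below replicate 2 in that class, and R403Q-EMPA was 1.91-fold above R403Q-CD (log2 difference 0.93, SE 0.21). In cardiomyocyte-like nuclei it was at 24.7 and 25.6 CPM in WT-CD, 33.3 and 26.2 CPM in R403Q-CD, and 33.4 and 32.8 CPM in R403Q-EMPA. The higher R403Q-CD library was level with the R403Q-EMPA libraries, so the groups overlapped, and the log2 difference was 0.16 (SE 0.16). In endothelial-like nuclei the levels were 10.6 and 10.7 CPM in WT-CD, 10.1 and 11.9 CPM in R403Q-CD, and 13.5 and 13.7 CPM in R403Q-EMPA, a log2 difference of 0.30 (SE 0.20).

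Atf4, the factor translated when PERK is active, was at 41.1 and 34.2 CPM in WT-CD, 30.9 and 34.3 CPM in R403Q-CD, and 43.1 and 42.5 CPM in R403Q-EMPA in fibroblast-like nuclei, a log2 difference of 0.39 (SE 0.15) between R403Q-EMPA and R403Q-CD. Cardiomyocyte-like levels were 19.8 and 19.5 CPM in WT-CD, 24.1 and 20.4 CPM in R403Q-CD, and 30.2 and 26.0 CPM in R403Q-EMPA, a log2 difference of 0.34 (SE 0.16). In endothelial-like nuclei, at 31.9 and 23.7 CPM in WT-CD, 27.8 and 33.3 CPM in R403Q-CD, and 33.5 and 32.6 CPM in R403Q-EMPA, R403Q-EMPA and R403Q-CD overlapped and the log2 difference was 0.12 (SE 0.18). Atf4 had the smallest difference of the 10 genes in the fibroblast-like and the endothelial-like class.

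Adjusted over all genes fitted in a class (edgeR's quasi-likelihood test, Benjamini-Hochberg, threshold 0.05), few genes of any kind passed between R403Q-EMPA and R403Q-CD. In fibroblast-like nuclei 0.338% of 15068 genes did, and 4 of the 10 were among them (Pdia4, Calr, Pdia6 and Dnajc3). In cardiomyocyte-like nuclei 0.251% of 14359 genes passed and in endothelial-like nuclei 0.213% of 14111, with none of the 10 in either. Pericyte-like nuclei had 0.613% of 11900 genes and 3 of the 10 (Pdia3, Calr and Hsp90b1), endocardial-like nuclei 1.12% of 11368 and 2 (Hspa5 and Calr), and myeloid-like nuclei 0.0925% of 10809 and none. Of the other 4 classes fitted, lymphatic endothelial-like nuclei had 0.0449% of 8910 genes and 1 of the 10 (Pdia6), epicardial-like nuclei 0.171% of 4668 and 1 of 7 fitted (Dnajc3), smooth muscle-like nuclei 0.0563% of 3552 and none of 4, and lymphoid-like nuclei 0.0986% of 5069 and none of 6, with 2 at an unadjusted p under 0.05 in each of the last 2 (168 and 436 of all genes). At an unadjusted p under 0.05, 6 of the 10 were counted in cardiomyocyte-like (12.8% of all genes), 10 in fibroblast-like (13.3%), 7 in endothelial-like (10.4%) and 7 in myeloid-like nuclei (7.26%). DESeq2 counted 2, 9 and 2 in the cardiomyocyte-like, fibroblast-like and endothelial-like classes, beside 2.46%, 2% and 1.18% of the genes it gave an adjusted p. The 4 fibroblast-like calls were each lost without R403Q-CD replicate 1, R403Q-CD replicate 2 or R403Q-EMPA replicate 1. The lymphatic endothelial-like call was lost when each of the 4 R403Q libraries was left out in turn, and the epicardial-like call in none of the 6 fits without 1 library. The pericyte-like and endocardial-like calls were lost without either R403Q-CD library. Both endocardial-like calls and Pdia3 in pericyte-like nuclei were also lost without either R403Q-EMPA library, pericyte-like Calr without R403Q-EMPA replicate 1 and pericyte-like Hsp90b1 without R403Q-EMPA replicate 2. Since this contrast was used to choose the genes, the counts stand beside the background only as a description.

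Between R403Q-CD and WT-CD the 10 genes were mostly lower in the mutant, and that direction rested on one WT-CD library. The median log2 difference was -0.051 in cardiomyocyte-like nuclei (3 of 10 positive), -0.35 in fibroblast-like nuclei (1 of 10) and -0.17 in endothelial-like nuclei (2 of 10). Single genes ran from -0.60 (SE 0.30) for Pdia4 to 0.24 (SE 0.16) for Ddit3 in cardiomyocyte-like nuclei and from -0.51 (SE 0.28) for Pdia3 to 0.19 (SE 0.21) for Ddit3 in fibroblast-like nuclei. Without WT-CD replicate 1 these differences were, in the same order, -0.23, 0.21, 0.11 and -0.066. Without WT-CD replicate 1 the medians were 0.15 (7 of 10 positive), -0.0064 (5 of 10) and 0.18 (9 of 10). Without WT-CD replicate 2 they were -0.23, -0.65 and -0.43. None of the 10 passed the adjusted threshold in any of 6 classes, where the background was 0.0905% of genes in cardiomyocyte-like, 0% in fibroblast-like, 0% in endothelial-like, 0% in pericyte-like, 0% in endocardial-like and 0.00925% in myeloid-like nuclei. In the other 4 classes none passed either, beside 0% of genes in lymphatic endothelial-like, 0% in smooth muscle-like, 0% in lymphoid-like and 0.0643% in epicardial-like nuclei, and none had an unadjusted p under 0.05 (297, 193, 349 and 234 of all genes did). DESeq2 likewise counted none of the 10 in the 3 large classes (0.754%, 0.0864% and 0.0354% of all genes), and at an unadjusted p under 0.05 the counts in the 6 classes named first were 0, 0, 0, 1, 1 and 3, beside 6.76%, 3.01%, 3.59%, 3.57%, 3.91% and 4.36% of all genes.

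Between R403Q-EMPA and WT-CD, 10 of the 10 genes had positive log2 differences in each of the 3 large classes, with medians of 0.51 in cardiomyocyte-like, 0.95 in fibroblast-like and 0.47 in endothelial-like nuclei. This comparison shares the R403Q-EMPA libraries with the comparison against R403Q-CD and the WT-CD libraries with that of R403Q-CD against WT-CD. It too was part of the choice of the 10 genes, so their calls here are a description only. Without WT-CD replicate 1 the medians were 0.69, 1.32 and 0.77, and without WT-CD replicate 2 they were 0.35, 0.66 and 0.25. Calr in cardiomyocyte-like nuclei (log2 difference 0.83, SE 0.18) and Ddit3 and Pdia6 in fibroblast-like nuclei (1.12, SE 0.21 and 1.24, SE 0.22) passed the adjusted threshold, beside 3.99% and 1.23% of all genes in those classes. Their log2 differences were 1.02, 0.86 and 1.67 without WT-CD replicate 1 and 0.68, 1.43 and 0.92 without WT-CD replicate 2. None of the 10 passed in endothelial-like nuclei, where 0.822% of genes did, 5 of the 10 had an unadjusted p under 0.05 (12.7% of all genes) and DESeq2 counted 1 (1.56%). In pericyte-like nuclei 2 passed (Calr and Hsp90b1, beside 1.69% of genes), in endocardial-like nuclei 1 (Hspa5, beside 2.35%) and in myeloid-like nuclei none (beside 0.527%, with 4 of the 10 and 10.6% of all genes at an unadjusted p under 0.05). In epicardial-like nuclei 3 of 7 passed (Pdia3, Hsp90b1 and Dnajc3, beside 0.257% of genes), and none did in lymphatic endothelial-like (0.0449%), smooth muscle-like (0.0563%) or lymphoid-like nuclei (0.0197%), with 4, 2 and 1 at an unadjusted p under 0.05 (585, 238 and 423 of all genes). Without WT-CD replicate 1 the counts in the 3 large classes were 3, 9 and 5, beside 5.88%, 3.78% and 3.67% of all genes in those fits. Without WT-CD replicate 2 they were 0, 4 and 0 (4.2%, 1.32% and 1.3% of all genes), and without R403Q-EMPA replicate 2 they were 0, 2 and 0 (2.34%, 2.86% and 0.991%). None of the 10 was called in these classes without R403Q-CD replicate 1 (1.94%, 0.419% and 0.494% of all genes), R403Q-CD replicate 2 (1.94%, 0.376% and 0.466%) or R403Q-EMPA replicate 1 (0.831%, 0.179% and 0.0896%). Calr in cardiomyocyte-like and Hsp90b1 in pericyte-like nuclei, of the 6 fits without 1 library, kept their call in the fit without WT-CD replicate 1 alone, and Ddit3 and Pdia6 in fibroblast-like nuclei in 3 of them. Pericyte-like Calr lost it without R403Q-EMPA replicate 1, and endocardial-like Hspa5 without that library or WT-CD replicate 2. In epicardial-like nuclei Pdia3 lost it without R403Q-EMPA replicate 2 and Hsp90b1 without that library or WT-CD replicate 1, while Dnajc3 kept it in all 6 such fits.

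**Figure D2:**
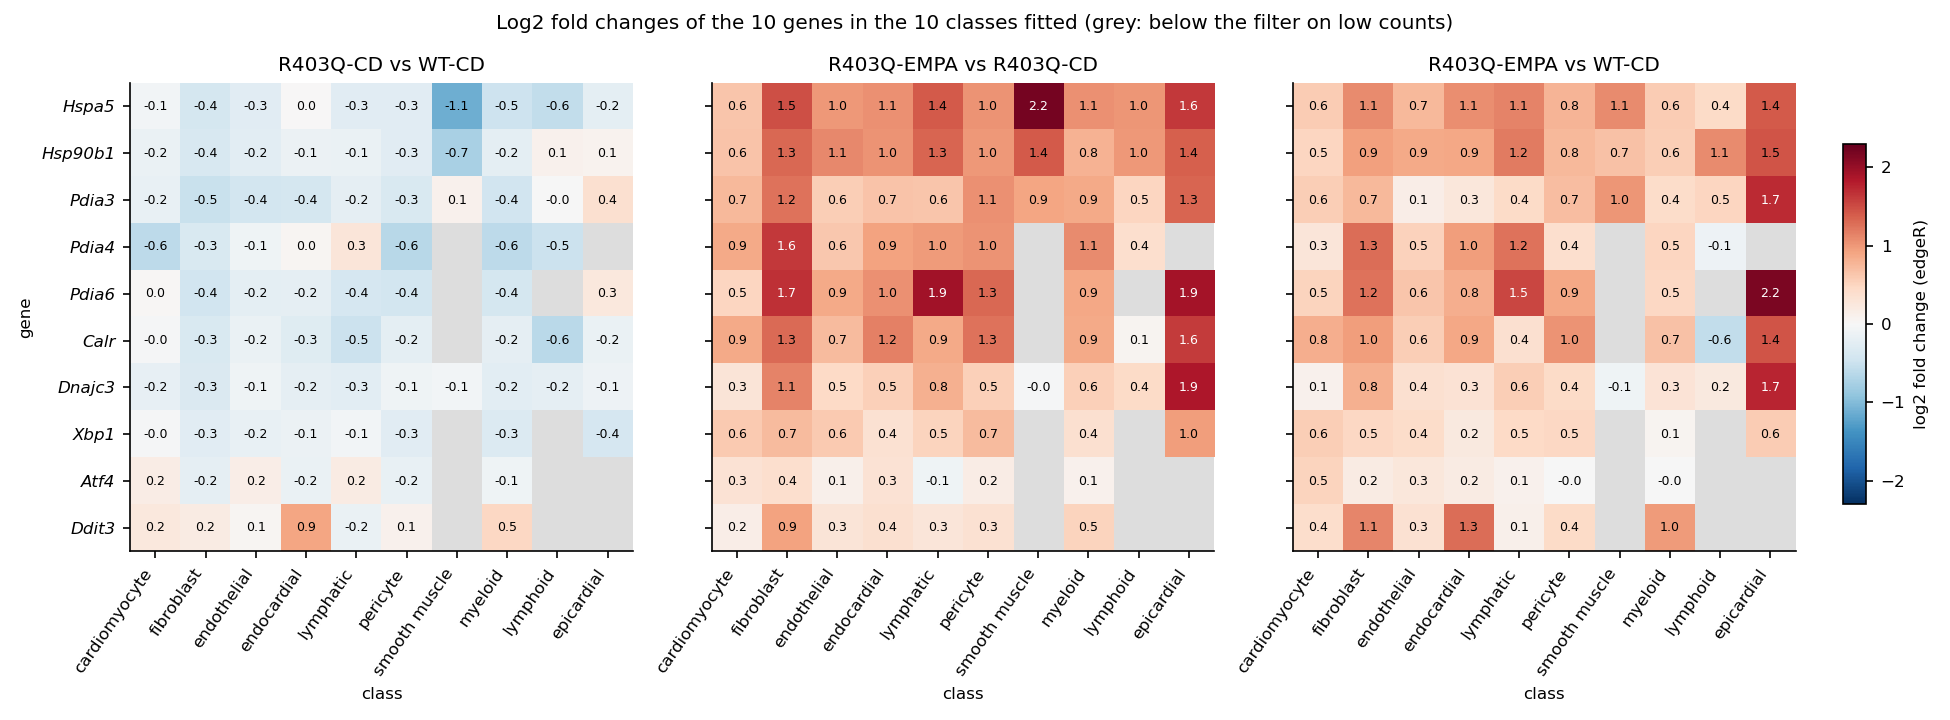
Log2 fold changes of the 10 genes (rows) in the 10 classes fitted (columns) for the 3 comparisons (panels), as a colour scale with the value printed in each cell. Grey cells did not pass the filter on low counts. In the R403Q-EMPA to R403Q-CD panel Hspa5 is positive in all 10 classes, from 0.65 to 2.21, while the R403Q-CD to WT-CD panel holds mostly small negative values.

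Set against R403Q-CD, R403Q-EMPA was followed gene by gene over the 10 classes fitted. Between 16.1% (smooth muscle-like) and 27.2% (cardiomyocyte-like) of all genes fitted in a class had both R403Q-EMPA libraries above both R403Q-CD libraries. Hspa5 and Hsp90b1 each had this arrangement in 10 of 10 classes, with log2 differences of 0.65 to 2.21 and 0.65 to 1.42. Calr had this in 9 of 9 classes where it passed the filter on low counts, Pdia6 in 8 of 8, Xbp1 in 8 of 8 (0.35 to 0.97), Pdia3 in 9 of 10, Pdia4 in 7 of 8 and Dnajc3 in 8 of 10. For Ddit3 it was 5 of 7 classes and for Atf4 2 of 7, with log2 differences of 0.16 to 0.93 and -0.098 to 0.39. Small classes carry few counts, and a gene that passed the filter only through its R403Q-EMPA libraries would have had to differ, so the counts are not compared between genes. Against WT-CD, R403Q-CD was lower in every class fitted for Calr (9 classes), Dnajc3 (10) and Xbp1 (8), by fitted value, and higher in 6 of 7 for Ddit3. These directions rested in part on WT-CD replicate 1. Without it, in the 3 large classes, Calr was higher in R403Q-CD in each (0.16, 0.021 and 0.25 in cardiomyocyte-like, fibroblast-like and endothelial-like nuclei), Dnajc3 in endothelial-like (0.13) and Xbp1 in cardiomyocyte-like nuclei (0.14), while Ddit3 was lower in fibroblast-like nuclei (-0.066).

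Values in the smaller classes are given for single genes. In endocardial-like nuclei Hspa5 was at 146 and 87.1 CPM in WT-CD, 104 and 129 CPM in R403Q-CD, and 242 and 246 CPM in R403Q-EMPA, a log2 difference of 1.06 (SE 0.22) between R403Q-EMPA and R403Q-CD. In pericyte-like nuclei Hsp90b1 was at 158 and 118 CPM in WT-CD, 104 and 128 CPM in R403Q-CD, and 224 and 241 CPM in R403Q-EMPA, and Calr at 53.1 and 36.6 CPM in WT-CD, 37.1 and 39.9 CPM in R403Q-CD, and 98.3 and 85.5 CPM in R403Q-EMPA. The R403Q-EMPA libraries were the highest 2 in each of these cases. In lymphatic endothelial-like nuclei Pdia6 was at 41.1 and 36.9 CPM in WT-CD, 33.7 and 26.7 CPM in R403Q-CD, and 99.5 and 136 CPM in R403Q-EMPA, and in the epicardial-like class, of 27 to 71 nuclei per library, Dnajc3 was at 136 and 138 CPM in WT-CD, 125 and 127 CPM in R403Q-CD, and 411 and 522 CPM in R403Q-EMPA. Between R403Q-EMPA and R403Q-CD these are the largest log2 differences of the 2 genes over the classes fitted, 1.93 (SE 0.31) and 1.86 (SE 0.32). In myeloid-like nuclei Hspa5 was at 236 and 142 CPM in WT-CD, 142 and 132 CPM in R403Q-CD, and 295 and 275 CPM in R403Q-EMPA and Atf4 at 30.2 and 28.9 CPM in WT-CD, 27.8 and 27.2 CPM in R403Q-CD, and 26.0 and 35.3 CPM in R403Q-EMPA. For Atf4 the R403Q-EMPA libraries lay on either side of the other 4. In the lymphoid-like class Calr was at 65.6 and 73.6 CPM in WT-CD, 45.6 and 44.0 CPM in R403Q-CD, and 46.7 and 46.3 CPM in R403Q-EMPA, with R403Q-EMPA hardly above R403Q-CD and below WT-CD. Summed transcripts of 8 cardiomyocyte genes, named further on, were at 4114 and 4243 CPM in the WT-CD, 2845 and 3417 CPM in the R403Q-CD and 5462 and 16225 CPM in the R403Q-EMPA lymphoid-like nuclei, 3.46-fold between the latter groups, and their part in the lymphoid-like values was not tested. In smooth muscle-like nuclei Dnajc3 was at 206 and 168 CPM in WT-CD, 213 and 149.7 CPM in R403Q-CD, and 164 and 192 CPM in R403Q-EMPA, with a log2 difference of -0.033 (SE 0.40).

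Levels of the same gene also differed between classes, described here without a test because the classes were clustered on the same nuclei. Cardiomyocyte-like nuclei had the lowest mean CPM over the 6 libraries for 9 of the 10 genes. CPM is a share of the UMIs of a class, and cardiomyocyte-like nuclei held more UMIs each. Library medians were 6888.5 to 12099.5 UMIs per nucleus there, 2528 to 4561 in fibroblast-like and 2142 to 3436 in endothelial-like nuclei. The order by CPM is therefore not an order of transcripts per nucleus, which was not compared. For Hspa5 the order was epicardial-like (291 ± 204 CPM, SD over 6 libraries), myeloid-like (204 ± 73.4), fibroblast-like (198 ± 105), lymphatic endothelial-like (198 ± 118), endocardial-like (159 ± 69.1), endothelial-like (130 ± 49.9), smooth muscle-like (126 ± 85.5), lymphoid-like (126 ± 53.0), pericyte-like (121 ± 47.9) and cardiomyocyte-like (99.4 ± 28.0). Neighbours in that order differed by less than 1 SD and their ranges overlapped. Calr and Dnajc3 had a clearer lower end. The Calr range of cardiomyocyte-like nuclei, 15.4 to 33.5 CPM, lay below that of the next class, lymphoid-like, at 44.0 to 73.6 CPM, and the Dnajc3 range of 50.7 to 73.6 CPM lay below the endothelial-like 73.8 to 116 CPM. Ddit3 was the exception, since cardiomyocyte-like nuclei ranked second at 29.3 ± 4.25 CPM and endocardial-like nuclei were lowest at 11.7 ± 4.32 CPM. Xbp1 was at 10.9 ± 2.65 CPM in cardiomyocyte-like and 75.6 ± 19.2 CPM in fibroblast-like nuclei, with ranges that did not meet.

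Between R403Q-EMPA and R403Q-CD other transcripts were higher along with the 10 genes. The summed level of the 10 genes in fibroblast-like nuclei was 899 ± 352 CPM in WT-CD (mean ± SD, n = 2). R403Q-CD had 691 ± 69.7 CPM and R403Q-EMPA 1704 ± 42.5 CPM, or 2.46-fold between these 2 groups. In cardiomyocyte-like nuclei the sums were 383 ± 112, 359 ± 12.2 and 553 ± 44.5 CPM (1.54-fold), and in endothelial-like nuclei 710 ± 299, 578 ± 55.1 and 1011 ± 45.1 CPM (1.75-fold). A list of 12 cytosolic heat shock genes, which fold proteins outside the ER, was 2.44-fold higher in R403Q-EMPA than in R403Q-CD in fibroblast-like, 1.57-fold in cardiomyocyte-like and 2.82-fold in endothelial-like nuclei. Of these 12, 5, 3 and 5 passed the adjusted threshold, all higher (beside 0.338%, 0.251% and 0.213% of all genes), and all 12 had positive log2 differences in each class, with medians of 1.30, 0.96 and 1.43. The 13 mitochondrially encoded transcripts, a sign of cytoplasm carried with nuclei, were 1.37-, 1.40- and 1.24-fold higher in the same order, ribosomal protein transcripts 1.32-, 1.17- and 1.21-fold, and 12 immediate early genes 1.24-, 1.13- and 1.14-fold. Malat1, a nuclear RNA, was at 1.06-, 1.14- and 1.03-fold. The part of each in the differences of the 10 genes was not tested. Between R403Q-CD and WT-CD, with both WT-CD libraries, the heat shock sum and that of the 10 genes went in different directions. The heat shock sum was at 1.12-, 1.26- and 1.10-fold in fibroblast-like, cardiomyocyte-like and endothelial-like nuclei. That of the 10 genes was at 0.77-, 0.94- and 0.81-fold.

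Nuclei with at most 2% mitochondrial UMIs were taken alone as an alternative chosen after seeing the data. The median log2 difference of the 10 genes between R403Q-EMPA and R403Q-CD was then 1.30 in fibroblast-like, 0.65 in cardiomyocyte-like and 0.75 in endothelial-like nuclei. The limit left 195 to 1451 fibroblast-like, 605 to 1267 cardiomyocyte-like and 32 to 658 endothelial-like nuclei per library, with the fewest fibroblast-like and endothelial-like ones in R403Q-EMPA replicate 2. Transcripts of 8 cardiomyocyte genes (Ttn, Myh6, Ryr2, Tnnt2, Actc1, Tnni3, Mb and Ckm), none of them at 0, summed to 1216 to 2165 CPM in fibroblast-like nuclei and 47956 to 60514 CPM in cardiomyocyte-like nuclei. In fibroblast-like nuclei the WT-CD libraries had 1564 and 1216 CPM of them, the R403Q-CD libraries 2008 and 2102 CPM and the R403Q-EMPA libraries 2165 and 2112 CPM. That sum was 1.04-fold between R403Q-EMPA and R403Q-CD. It was 3.46-fold in lymphoid-like nuclei and from 0.970-fold (smooth muscle-like) to 1.40-fold (epicardial-like) in the other classes outside the cardiomyocytes.

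**Figure D3:**
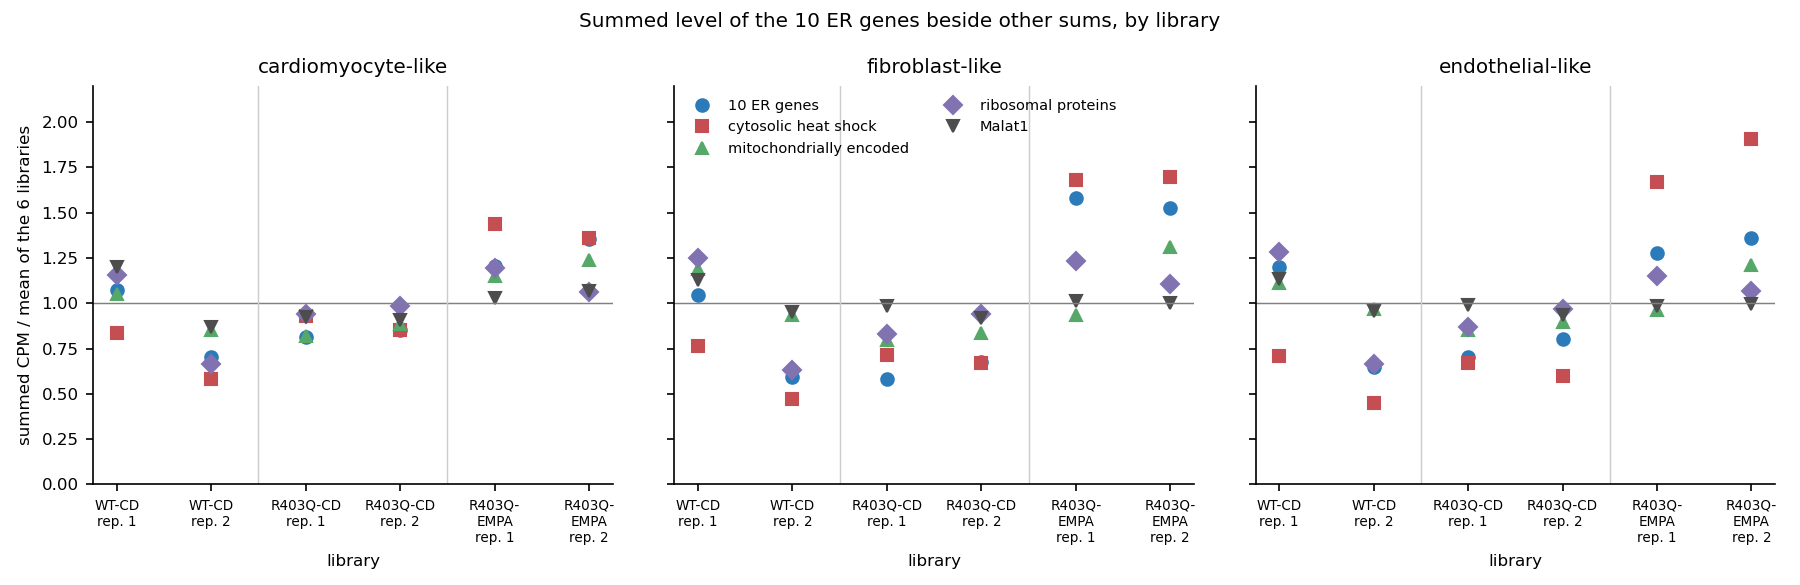
Summed CPM of the 10 ER genes and of 4 other transcript sets in each library, divided by the mean of the 6 libraries, on a linear axis from 0, in the 3 large classes. In the R403Q-EMPA libraries the cytosolic heat shock sum (squares) is as high as or higher than the ER sum (circles), and in the fibroblast-like and endothelial-like classes ribosomal protein and mitochondrially encoded transcripts lie closer to 1. WT-CD replicate 1 lies above WT-CD replicate 2 for every set.

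The wider pathway was read from 4 lists that hold none of the 10 genes and were written with earlier results of these data known. They comprise 18 ER folding helpers, 11 UPR sensors and processing factors, 17 genes of ER-associated degradation (ERAD) and the translocon, and 25 genes of the integrated stress response. In fibroblast-like nuclei 67 of the 71 were fitted. Between R403Q-EMPA and R403Q-CD 1 of these rose and none fell. It was Hyou1, the nucleotide exchange factor of Hspa5, at 17.8 and 13.0 CPM in WT-CD, 11.5 and 14.6 CPM in R403Q-CD, and 36.5 and 40.1 CPM in R403Q-EMPA. R403Q-EMPA was above all other libraries, with a log2 difference of 1.55 (SE 0.20, edgeR's quasi-likelihood test, adjusted p = 0.0295). The call was lost without R403Q-CD replicate 1, R403Q-CD replicate 2 or R403Q-EMPA replicate 1 (adjusted p from 0.00992 to 0.334 over the 6 fits without 1 library), while DESeq2 kept it. All genes called in that class made up 0.338%. At an unadjusted p under 0.05 the count was 25 of 67 (13.3% of all genes), and by DESeq2 10 (2% of all genes). The median log2 difference was 0.57 in folding helpers (16 of 18 positive), 0.067 in sensors and processing (7 of 11), 0.39 in ERAD and translocon (15 of 16) and 0.17 in the integrated stress response (16 of 22), against 1.28 for the 10 genes and about 0 for all genes.

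In the other large classes no pathway gene passed between R403Q-EMPA and R403Q-CD by edgeR's quasi-likelihood test. In cardiomyocyte-like nuclei 0 of 62 did, with 12 at an unadjusted p under 0.05 (12.8% of all genes) and 2 by DESeq2 (2.46%). The smallest p values belonged to Atf3, a stress-induced factor downstream of Atf4, and Ddit4, an inhibitor of mTORC1. Atf3 was at 4.71 and 4.91 CPM in WT-CD, 25.4 and 31.0 CPM in R403Q-CD, and 16.2 and 11.4 CPM in R403Q-EMPA (log2 difference -1.03, SE 0.21, edgeR adjusted p = 0.0844). Ddit4 was at 10.1 and 15.2 CPM in WT-CD, 18.4 and 13.7 CPM in R403Q-CD, and 29.0 and 46.1 CPM in R403Q-EMPA (log2 difference 1.22, SE 0.27, edgeR adjusted p = 0.100). In endothelial-like nuclei 0 of 64 passed, with 8 at an unadjusted p under 0.05 (10.4% of all genes) and 1 by DESeq2 (1.18%), and the smallest p values were those of Ddit4 (log2 difference 0.82, edgeR adjusted p = 0.146) and Canx, the membrane-bound relative of Calr (log2 difference 0.51, edgeR adjusted p = 0.245). List medians were 0.23, -0.13, 0.19 and 0.10 in cardiomyocyte-like and 0.16, 0.092, 0.12 and 0.25 in endothelial-like nuclei, in the order of the lists above.

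Between R403Q-CD and WT-CD a single pathway gene passed in the 3 large classes. Atf3 rose in cardiomyocyte-like nuclei, at the levels just given, by a log2 difference of 2.55 (SE 0.24, edgeR adjusted p = 0.0140). Summed immediate early transcripts in those nuclei were at 161 and 81.3 CPM in the WT-CD, 176 and 189 CPM in the R403Q-CD and 246 and 166 CPM in the R403Q-EMPA libraries, that is 1.5-fold in R403Q-CD and 1.70-fold in R403Q-EMPA relative to WT-CD, and their part in the Atf3 values was not tested. Both R403Q-CD libraries were above both WT-CD libraries for Atf3, and the call was lost only in the fit without R403Q-CD replicate 2 (adjusted p from 0.00532 to 0.147 over the 6 fits without 1 library). It was 1 of 62 pathway genes fitted, beside 0.0905% of all genes. In fibroblast-like nuclei 0 of 67 passed by edgeR, with 1 at an unadjusted p under 0.05 (3.01% of all genes) and 0 by DESeq2. The smallest p values were those of Ddit4 (log2 difference 0.45, SE 0.18) and of Sdf2l1, an ER partner of DnaJ proteins (-1.16, SE 0.53), both at an edgeR adjusted p of 1.00. In endothelial-like nuclei 0 of 64 passed by edgeR, with 2 at an unadjusted p under 0.05 (3.59% of all genes) and 0 by DESeq2, and Pdia5 (-0.61, SE 0.14) and Cebpb (1.22, SE 0.45) had the smallest p values, also at an edgeR adjusted p of 1.00.

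Between R403Q-EMPA and WT-CD 5 of 62 pathway genes passed in cardiomyocyte-like nuclei, all from the integrated stress response list. In the same fit 3.99% of all 14359 genes passed, and 324 of those 573 were lower. Atf3, Ddit4 and Gdf15, a stress-induced cytokine, rose, by log2 differences of 1.52 (SE 0.24, edgeR adjusted p = 0.0109), 1.57 (SE 0.28, adjusted p = 0.0157) and 3.22 (SE 0.56, adjusted p = 0.0155). Gdf15 had few counts, with 3 UMIs in each WT-CD library and 64 and 29 UMIs in the R403Q-EMPA libraries, a ratio of summed CPM of 10.3 (exact 95% interval 4.56 to 28.8, counting error only). Stc2, a secreted glycoprotein, and Cth, an enzyme of cysteine synthesis, fell by 0.98 (SE 0.21, edgeR adjusted p = 0.0370) and 1.34 (SE 0.29, adjusted p = 0.0366) on the log2 scale. The members of this list that passed therefore included genes that were lower. Atf3 and Gdf15 lost the call without R403Q-EMPA replicate 1, Ddit4 without WT-CD replicate 1 or R403Q-EMPA replicate 2, Stc2 in each of the 6 fits that left out 1 library, and Cth in each but the fit without WT-CD replicate 2. The edgeR adjusted p over the 6 fits without 1 library reached 0.0664 for Atf3, 0.138 for Gdf15, 0.0581 for Ddit4, 0.238 for Stc2 and 0.230 for Cth.

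In fibroblast-like nuclei 3 of 67 passed between R403Q-EMPA and WT-CD, beside 1.23% of all genes. Hyou1 rose by a log2 difference of 1.31 (SE 0.20, edgeR adjusted p = 0.0223), and Ddit4, at 20.4 and 22.0 CPM in WT-CD, 23.6 and 34.2 CPM in R403Q-CD, and 53.9 and 57.0 CPM in R403Q-EMPA, by 1.39 (SE 0.18, adjusted p = 0.0157). Slc7a11, the cystine transporter, was at 63.5 and 66.7 CPM in WT-CD, 60.7 and 52.7 CPM in R403Q-CD, and 28.8 and 36.1 CPM in R403Q-EMPA and fell by 1.01 (SE 0.15, edgeR adjusted p = 0.0224). All 3 calls were lost without R403Q-EMPA replicate 1, and that of Slc7a11 also without either R403Q-CD library (edgeR adjusted p up to 0.0858, 0.0713 and 0.172). Hyou1 also lost its call in nuclei with at most 2% mitochondrial UMIs (adjusted p = 0.0502). In endothelial-like nuclei 1 of 64 passed, beside 0.822% of all genes. Pdia5, another disulphide isomerase, was at 77.1 and 67.4 CPM in WT-CD, 49.4 and 45.4 CPM in R403Q-CD, and 42.7 and 37.8 CPM in R403Q-EMPA and fell by 0.83 (SE 0.14, edgeR adjusted p = 0.0434). The Pdia5 call was lost without either R403Q-CD library or either R403Q-EMPA library (adjusted p up to 0.259) and in nuclei with at most 2% mitochondrial UMIs (adjusted p = 0.851).

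**Figure D4:**
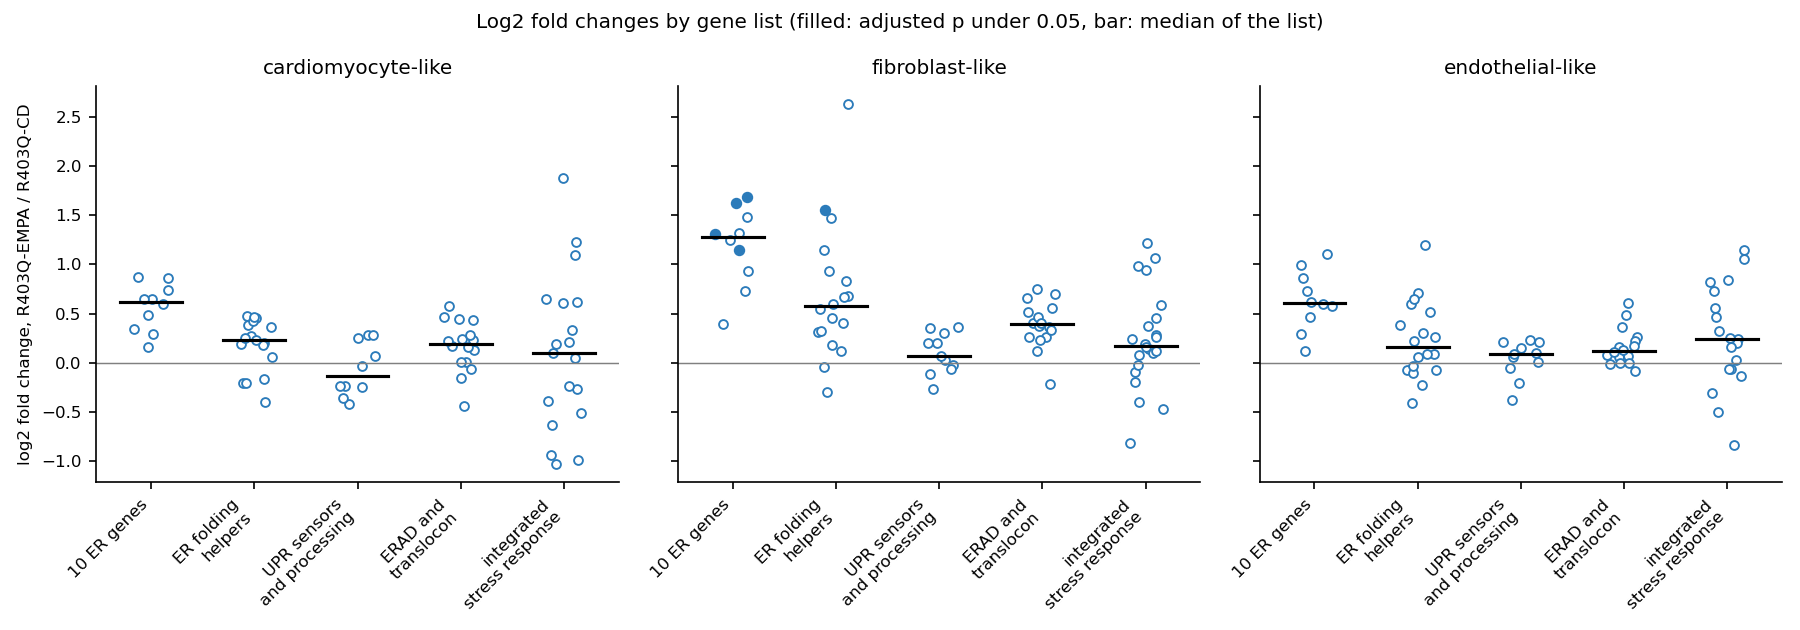
Log2 fold changes between R403Q-EMPA and R403Q-CD for the 10 ER genes and 4 pathway lists in the 3 large classes. Each point is a gene, filled where its adjusted p was under 0.05, and bars are medians of a list. In fibroblast-like nuclei the median is 1.28 for the 10 genes, 0.57 for the folding helpers and 0.067 for the UPR sensors and processing factors, with Hyou1 the only filled point outside the 10 genes.

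The 10 genes were then compared by ERSE match, which takes no account of their counts. In fibroblast-like nuclei the 5 genes with the motif had R403Q-EMPA to R403Q-CD log2 differences of 1.15 to 1.69 (median 1.32), and the 5 without it 0.39 to 1.62 (median 0.93). In endothelial-like nuclei the medians were 0.86 and 0.57, and in cardiomyocyte-like nuclei 0.65 and 0.59. The 2 ranges overlapped in each class, and Pdia4, without the motif, was close to the top of the range in fibroblast-like nuclei. Outside the 10 genes the same letters were in the windows of 32 other named genes, among them Canx, Creld2, Syvn1, Ero1b and Derl3. Of the 14 fitted in fibroblast-like nuclei 11 had positive log2 differences (median 0.29), of 11 in cardiomyocyte-like nuclei 6 (median 0.093) and of 11 in endothelial-like nuclei 10 (median 0.15), where 50.1%, 51.2% and 51.3% of all genes were positive. None of these passed the adjusted threshold in that comparison. Canx was at 141 and 102 CPM in WT-CD, 110.2 and 107 CPM in R403Q-CD, and 183 and 202 CPM in R403Q-EMPA in fibroblast-like nuclei and Creld2, an ER protein with a thioredoxin-like motif, at 11.4 and 6.72 CPM in WT-CD, 6.36 and 7.50 CPM in R403Q-CD, and 20.2 and 18.1 CPM in R403Q-EMPA. In both cases the R403Q-EMPA libraries were the highest 2 of the 6. Canx and Creld2 had the smallest p of the 14 in that class and comparison and do not stand for the rest. Spats2l, Acacb and Pan2, for example, had log2 differences of 0.039, -0.12 and -0.17.

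Genes whose levels followed Hspa5 were sought over 60 sums (10 classes in 6 libraries), each centred on its class mean, among 8211 genes with a mean of at least 20 CPM. The sums share their library and depth, so the correlations describe these libraries and have no p. Group differences, which were part of the choice of the 10 genes, remain after centring. High ranks among the 10 were therefore partly fixed by that choice. Ddit3 was not among the genes compared. The 5 most alike were Hsp90b1 (r = 0.914), Pdia6 (0.884), Serpinh1 (0.861), Pdia3 (0.811) and Calr (0.795). Serpinh1 (HSP47) is the ER chaperone of collagen and the only one of the 5 outside the 10 genes. Dnajc3 (0.767) and Pdia4 (0.766) ranked 12th and 13th, Xbp1 (0.543) 180th and Atf4 (0.237) 1480th. The 5 most like Atf4 held none of the 10 genes, namely Txn1 (0.664), Itpripl2 (0.578), Pip4k2b (0.562), Nolc1 (0.552) and Etv3 (0.538).

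Clusters of a class were taken by the groups in different shares, so the 10 genes were also read within single clusters, an alternative added after seeing the data. Cluster 2, with Cilp and Postn among its leading genes, held 17.2% and 11.3% of the fibroblast-like nuclei of WT-CD, 10.3% and 12.3% of those of R403Q-CD and 50.6% and 26.2% of those of R403Q-EMPA. Cluster 17 held 78.2% and 70.5% of the cardiomyocyte-like nuclei of WT-CD, 49.0% and 34.0% of those of R403Q-CD and 10.1% and 25.5% of those of R403Q-EMPA. Within the 5 fibroblast-like clusters the median R403Q-EMPA to R403Q-CD ratio of the 10 genes was 1.86 (cluster 2) to 2.85 (cluster 5), and 9 or 10 of the 10 genes had both R403Q-EMPA libraries above both R403Q-CD libraries, an arrangement of 19.2% to 24.4% of the genes fitted in the class. In cluster 2 the WT-CD libraries had 255 and 136 CPM of Hspa5, the R403Q-CD libraries 162 and 206 CPM and the R403Q-EMPA libraries 330.2 and 346 CPM. In cluster 5 its levels were 170.3 and 73.9, 65.8 and 93.5, and 307 and 272 CPM in the same order. The R403Q-EMPA levels were similar in both clusters, and the control-diet levels were lower in cluster 5. Within the 4 cardiomyocyte-like clusters the median ratio was 1.33 to 1.71, with 6 to 9 of the 10 genes and 24.3% to 26.9% of all genes arranged in that way. In the endothelial-like class cluster 10, with Cxcl12, Sox17 and Hey1 among its leading genes, held 5% and 7.84% of the nuclei of WT-CD, 10.4% and 10.4% of those of R403Q-CD and 26.9% and 11.8% of those of R403Q-EMPA. Within the 5 endothelial-like clusters with at least 20 nuclei in each R403Q library the median ratio was 1.44 (cluster 9) to 1.76 (cluster 10), and 5 (cluster 20) to 9 (cluster 7) of the 10 genes had that arrangement, beside 15.4% to 23.3% of all genes. In cluster 10 Hspa5 was at 121 and 46.4, 67.2 and 86.8, and 160.4 and 149.6 CPM in the same order of groups. The part of the cluster shares in the differences of the 10 genes was not tested.

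**Figure D5:**
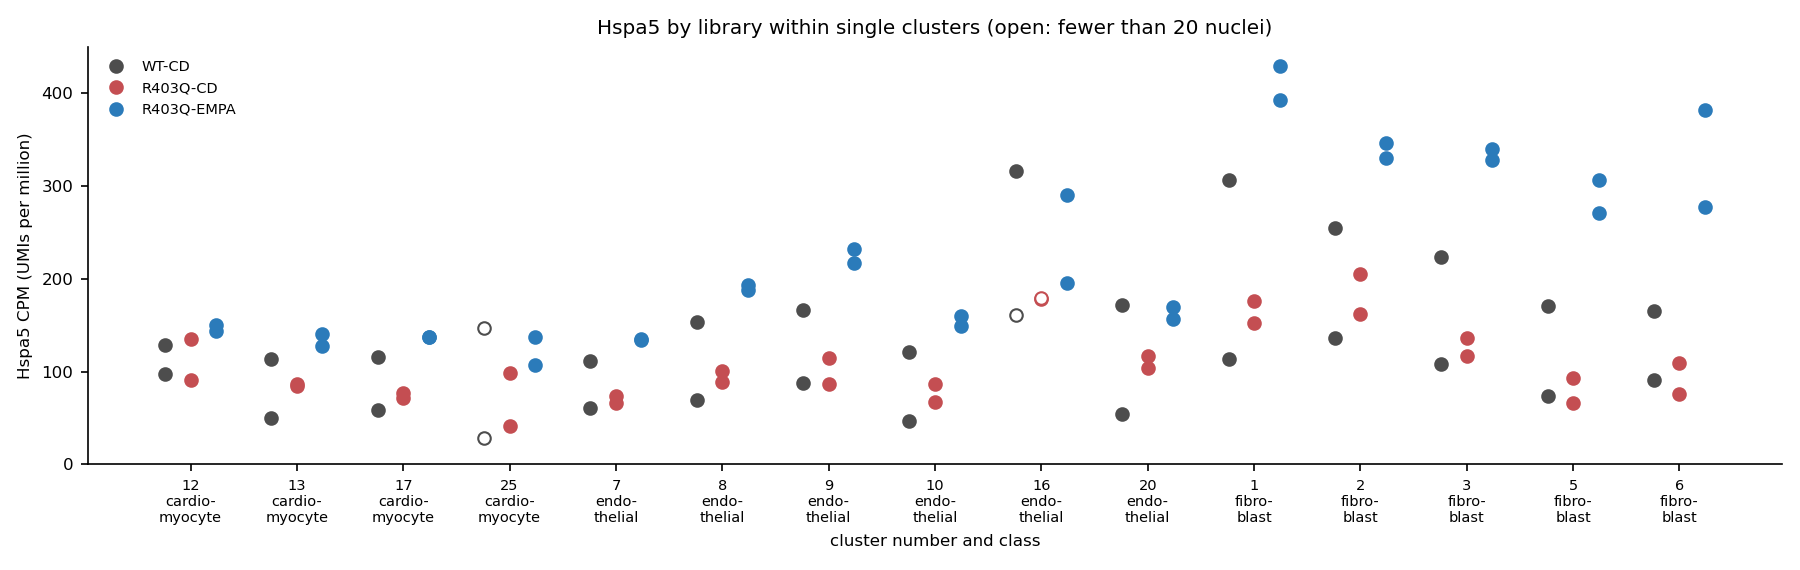
Hspa5 level (CPM, linear axis from 0) in each library within the 4 cardiomyocyte-like, 6 endothelial-like and 5 fibroblast-like clusters. Each point is a library coloured by group, and open points rest on fewer than 20 nuclei. In each fibroblast-like cluster both R403Q-EMPA points lie above both R403Q-CD points, as in cluster 5 at 307 and 272 CPM against 65.8 and 93.5 CPM.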

How the data were processed

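Raw UMI counts per gene and nucleus, deposited per library as matrices with gene and barcode lists, were used. According to the labels the authors made them from 10x Genomics 3′ libraries, and the submitters' processing notes name Cell Ranger 8.0.1 and build GRCm39. The annotation and the counting of introns are not given in the sources used here. No deposited cell annotation was used. The 10 genes and all gene lists were chosen with earlier results of these data known. Ddit3 is listed on 2 rows, 1 of them without any UMI, so the 10 symbols fill 11 rows, of which the 10 with counts were used.

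Barcodes with at least 500 UMIs, 300 genes and at most 5% mitochondrially encoded UMIs were kept, doublets called by scanpy's Scrublet were removed (3.68% to 6.45% per library), and nuclei were clustered with scanpy 1.11.5 (2000 variable genes, 30 components, 15 neighbours, Leiden resolution 1) into 26 clusters. A cluster was named from at least 3 detected markers. No cluster was named adipocyte-like, Schwann-like nuclei were too few to fit, and 1 cluster of 41 nuclei stayed unnamed. Rebuilt class names may differ from those of the study. UMI counts were summed per class and library. CPM is the sum for a gene scaled to 1000000 UMIs of that class and library. For single genes in a class the total was that of the genes fitted, multiplied by edgeR's TMM factor. Summed levels of gene sets were scaled to all UMIs of the class and library without that factor, so the printed values of single genes do not add up to them. CPM compares one gene between samples and not one gene with another.

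Each class with at least 20 nuclei in every library was fitted with edgeR 4.0.16 (filterByExpr, TMM, quasi-likelihood test, all 6 libraries, no covariate, adjusted over all genes fitted), in R 4.3.3. Standard errors are the log2 fold change divided by the square root of F. DESeq2 1.42.0, no filter on low counts, at least 1000 UMIs per nucleus, at most 2% mitochondrial UMIs and leaving out each library were the alternatives. p-values measure spread between libraries. With 2 against 2 libraries an exact permutation test cannot go below 0.333. The fit was tested on simulated data with 200 changed genes per class, in cardiomyocyte-like, fibroblast-like and endothelial-like nuclei. Of the simulated calls 5.806% to 10.98% were false, more than the adjusted threshold allows. Only 44% to 60% of the 2-fold changes were recovered, and 80% to 90% of the larger ones. A gene that did not pass may therefore still have differed by about 2-fold. Pathway genes were named if they passed the threshold in a class and comparison, at most 6 per list, or else as the 2 with the smallest p, and likeness was described by the 5 highest correlations. Replicate libraries differed by more than counting noise (chi-square per degree of freedom 8.41 to 54.8). Promoter sequences are from RefSeq on GRCm38.p6, another build than that of the counts, and matched all 10 genes by symbol.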

Additional observations from a re-analysis of the deposited data

How the results depend on the processing

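No paired analysis was possible because the labels carry no replicate numbers that pair libraries across groups. Of the 10 genes, the sign of single R403Q-EMPA to R403Q-CD differences was kept in 298 of 300 alternative fits in the 3 large classes. The median of the 10 genes between R403Q-CD and WT-CD turned positive without WT-CD replicate 1, at 0.15 in place of -0.051 among cardiomyocyte-like nuclei and 0.18 in place of -0.17 among endothelial-like ones, while the medians of the other comparisons kept their sign in these classes. Counts past the threshold moved with the setting, as did the share of all genes called, and the cause was not tested. In cardiomyocyte-like nuclei, R403Q-EMPA against R403Q-CD, DESeq2 called 2 of the 10 genes and 2 pathway genes (2.46% of all genes), and a fit with no filter on low counts 4 and 4 (2.8%). Against WT-CD, no filter gave 3 of the 10 (5.85%). In fibroblast-like nuclei, R403Q-EMPA against R403Q-CD, 9 of the 10 were called by DESeq2 (2% of all genes), 9 with no filter (4.01%) and 7 in nuclei with at most 2% mitochondrial UMIs (3.25%), against 0.338% as reported. Pathway genes called there numbered 10 by DESeq2, 18 with no filter, 2 in nuclei of at least 1000 UMIs (0.524% of all genes) and 9 at the 2% limit. In nuclei of at least 1000 UMIs 5 of the 10 were called against R403Q-CD and 3 against WT-CD (1.24%). Against WT-CD the 10 genes gave 7, 8 and 8 calls by DESeq2, with no filter and at the 2% limit (2.87%, 4.44% and 3.62% of all genes, with a median of 1.19 at the limit), and pathway genes 8, 12 and 8. In endothelial-like nuclei, R403Q-EMPA against R403Q-CD, the 10 genes gave 2, 6 and 2 calls (1.18%, 2.5% and 1.13% of all genes) and pathway genes 1 by DESeq2 and 3 with no filter. Against WT-CD the 10 genes gave 1 and 4 (1.56% and 3.36%), and pathway genes 2 and 4 and, at the 2% limit, 0.

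Leaving out 1 library at a time, medians of the 10 genes ran from -0.23 to 0.15 (R403Q-CD against WT-CD), 0.47 to 0.71 (R403Q-EMPA against R403Q-CD) and 0.35 to 0.69 (R403Q-EMPA against WT-CD) among cardiomyocyte-like nuclei. In fibroblast-like nuclei they ran from -0.65 to -0.0064, 1.16 to 1.36 and 0.66 to 1.32, and in endothelial-like nuclei from -0.43 to 0.18, 0.50 to 0.79 and 0.25 to 0.77. In the 2 comparisons with R403Q-EMPA, calls among the 10 ran from 0 to 3 and 0 to 3 in cardiomyocyte-like, 0 to 9 and 0 to 9 in fibroblast-like and 0 to 4 and 0 to 5 in endothelial-like nuclei. All genes called ran from 0% to 1.21% and 0.831% to 5.88%, from 0% to 1.91% and 0.179% to 3.78%, and from 0.0551% to 1.41% and 0.0896% to 3.67% in the same order. Pathway calls in the 3 comparisons ran from 0 to 1, 0 to 0 and 1 to 5, from 0 to 0, 0 to 12 and 0 to 14, and from 0 to 0, 0 to 2 and 0 to 5. With 1 library left in a group, its spread is taken from the other groups.

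The 2 libraries per group limit every test here, and Pdia4, Pdia6 and Xbp1 in cardiomyocyte-like nuclei and all genes in classes of under 100 nuclei per library rest on few UMIs.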
